A study of Mus musculus with 5 samples.

Results

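The 43 genes described here carry out cell division: they encode the mitotic cyclins and kinases, the proteins of the centromere and spindle, the factors that copy DNA, the enzymes that make its building blocks, and the regulators that start DNA replication. They were taken by name from a list drawn up with earlier results of these data known, with no threshold on their values, and all 43 were among the 20365 gene names in the tables. The libraries came from cardiac fibroblasts (CF) of adult healthy male C57Bl/6J wildtype mice, which had been freed by collagenase perfusion of the heart, depleted of CD31+ and CD45+ cells and cultured to confluency in a medium with serum. Labeled CF (3 libraries) were then kept for 12 h with 0.1 mM 4-thiouridine (S4U), and unlabeled CF (2 libraries) for the same time without it. S4U is a uridine analog that cells build into new RNA. RNA of both groups was treated with iodoacetamide, which makes an incorporated S4U appear as C where the genome has T. The T>C conversion rate, the share of covered T positions read as C, therefore rises with the part of a transcript that was made during labeling. Libraries were made from the 3′ ends of transcripts with unique molecular identifiers, so a level here counts transcript ends, is not scaled by length, and is given as CPM, here reads per 1000000 counted reads with 1 interval for each gene. Per the methods, SLAMseq used 3 CF preparations and the controls without S4U were kept in parallel, but which preparation a replicate number stands for is not stated, and the unlabeled group has only 2 libraries.

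Cells that leave rest make cyclin E and the E2F factors, which switch on the genes for DNA replication. The genes for mitosis follow later, and their transcripts and proteins peak shortly before division and are then removed. In resting cells both groups are held down by repressor complexes that sit at short promoter elements: the E2F site in replication genes, and the cell cycle genes homology region (CHR), often with CCAAT boxes upstream, in mitosis genes. Fibroblasts of the adult heart rarely divide, while fibroblasts in culture can re-enter the cycle and slow again at confluency.

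The promoters of the genes were read from RefSeq (build GRCm38.p6, 250 bases before to 50 bases after the gene start), and 35 of the 43 genes had at least 1 entry, 37 promoters in all. *Ccne2*, *Aurkb*, *Kif20a*, *Mcm4*, *Stmn1*, *Gins2*, *Ccna2* and *Tpx2* had none there. Both strands were searched for TTTGAA (CHR), CCAAT, and the E2F words TTTCCCGC, TTTCGCGC, TTTGCCGC and TTTGGCGC. The CHR letters were in 16 of 22 promoters of the mitosis and chromatin genes (72.7%) and in 2 of 15 promoters of the replication, nucleotide and G1/S genes (13.3%), beside 17.9% of all 32851 promoters of that length. The E2F words had the opposite pattern, with 1 of 22 (4.55%) and 5 of 15 (33.3%), beside 2.26% of all promoters. CCAAT was in 20 of 22 (90.9%) and 10 of 15 (66.7%), beside 37.4%. These matches are descriptions of letters, and no match says only that the letters are not in the window.

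Windows of 7 promoters show these elements, 4 of mitosis and chromatin genes and 3 of replication genes. Capitals mark the words found on either strand, so that TTCAAA and ATTGG are the CHR and CCAAT letters read from the other strand, and in *Mcm5* and *Mcm6* E2F words of both strands overlap. The windows lie on chr10:69352893-69353047 (*Cdk1*, minus strand), chr9:70421535-70421649 (*Ccnb2*, minus), chr11:99024170-99024294 (*Top2a*, minus), chr9:61946780-61946839 (*Kif23*, minus), chr8:75109349-75109523 (*Mcm5*, plus), chr1:128359696-128359820 (*Mcm6*, minus) and chr11:98908001-98908050 (*Cdc6*, plus).
Cdk1: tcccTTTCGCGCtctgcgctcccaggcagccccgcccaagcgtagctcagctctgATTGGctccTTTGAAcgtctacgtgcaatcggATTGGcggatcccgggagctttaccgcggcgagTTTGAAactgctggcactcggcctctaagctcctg
Ccnb2: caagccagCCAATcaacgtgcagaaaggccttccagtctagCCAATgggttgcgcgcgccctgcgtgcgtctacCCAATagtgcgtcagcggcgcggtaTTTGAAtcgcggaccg
Top2a: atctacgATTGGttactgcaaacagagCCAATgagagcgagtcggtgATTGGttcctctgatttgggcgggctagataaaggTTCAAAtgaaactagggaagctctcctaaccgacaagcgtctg
Kif23: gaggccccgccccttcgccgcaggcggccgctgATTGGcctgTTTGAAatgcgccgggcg
Mcm5: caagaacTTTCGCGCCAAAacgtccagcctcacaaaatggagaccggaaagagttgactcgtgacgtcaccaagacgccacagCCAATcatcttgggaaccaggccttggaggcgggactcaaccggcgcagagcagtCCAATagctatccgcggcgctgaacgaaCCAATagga
Mcm6: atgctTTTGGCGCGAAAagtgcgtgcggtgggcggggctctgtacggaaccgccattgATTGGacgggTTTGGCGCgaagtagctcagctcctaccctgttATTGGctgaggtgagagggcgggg
Cdc6: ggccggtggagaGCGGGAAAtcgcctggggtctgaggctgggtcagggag

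The *Cdk1* window holds all 3 elements: CHR words at -71 and -15 from the gene start, CCAAT boxes at -80 and -48, and an E2F word at -131. A further CCAAT box at -208 lies outside it. In the *Ccnb2* window, 3 CCAAT boxes stood at -87, -54 and -21 and a CHR word at 5, and a second CHR word at -167 lies outside it. In *Kif23* a single CCAAT box at -7 preceded a CHR word at 3. The *Cdc6* window holds an E2F word at -138 and neither of the other words.

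**Figure D1:**
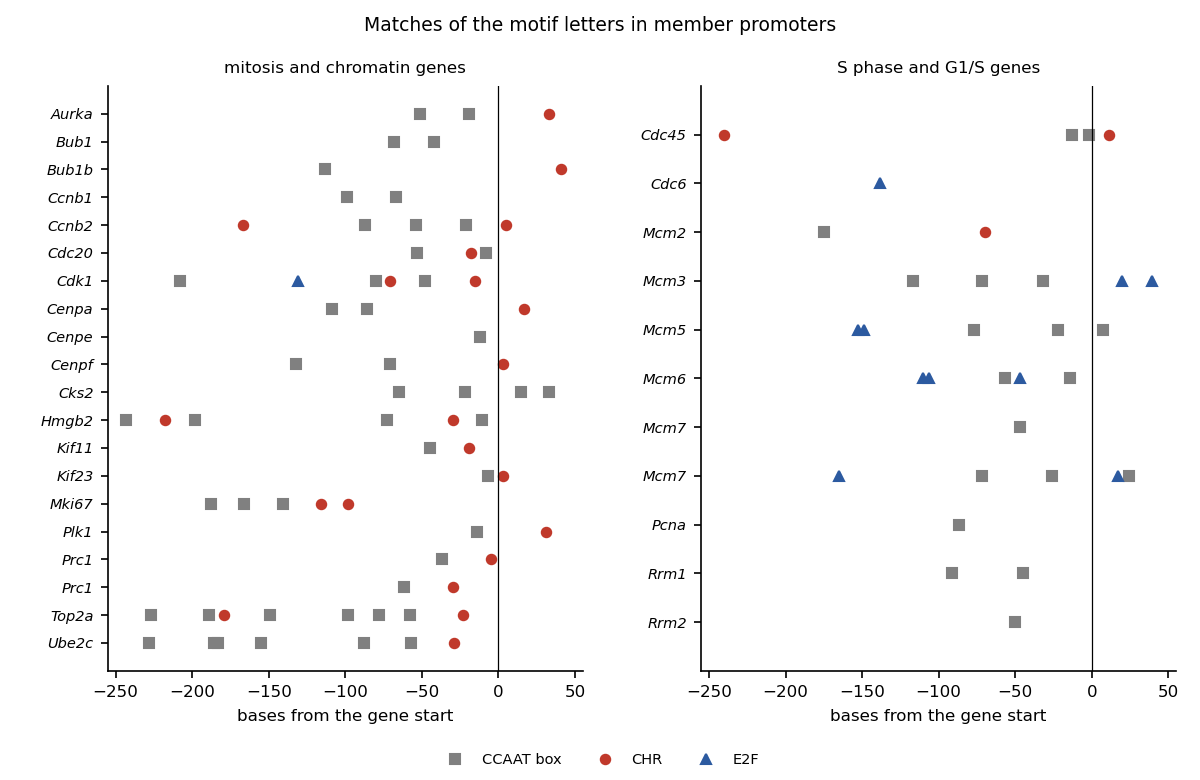
Distance in bases from the gene start (x axis) of each match to the CCAAT, CHR and E2F letters in the promoters of the mitosis and chromatin genes (left) and of the replication, nucleotide and G1/S genes (right), with 1 row for each promoter that holds a match. CHR matches (circles) were in 16 of 22 promoters on the left and 2 of 15 on the right, and E2F matches (triangles) in 1 of 22 and 5 of 15.

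The counted reads of a library ranged from 506045 (labeled replicate 3) to 1842863 (unlabeled replicate 1), and 473 to 2224 of them fell on the 43 genes. The median interval of these genes was 662 bases long on GRCm39 and 37 of the 43 lay within 1 exon. 11 overlapped an annotated gene of the other strand (among them *Kif20a* with *Cdc23* and *Ccna2* with *Exosc9*), none overlapped one on the same strand, and whether the counting used strand is not given in the sources used here. The interval of *Bub1* was an annotated UTR over only 12.1% of its length. The 10 fibroblast markers were read in every library and summed to 39200 to 42800 CPM in the labeled and 31900 to 35500 in the unlabeled libraries. Macrophage and leukocyte markers (9 of 10 read in every library) summed to 92.0 to 141 and 97.1 to 158, endothelial markers (8 of 8) to 176 to 271 and 221 to 297, and mural markers (5 of 8) to 78.0 to 178 and 157 to 165. Cardiomyocyte markers reached at most 8.03, with *Myl2* and *Ryr2* at 0 reads, and epicardial or mesothelial markers at most 7.9, with *Msln* and *Krt19* at 0. The part of these cells in the results was not tested.

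Transcripts of the division machinery were present in CF at confluency, at modest levels. All 43 genes were read in labeled replicates 1 and 2 and in both unlabeled libraries, and 42 in labeled replicate 3. The exception was *Cks2*, with 0 reads there, which allows a level of up to 5.93 CPM (limit of 3 counts, counting error only). The median gene stood at 17.7 CPM in the labeled libraries, the lowest at 1.57 (*Bub1*) and the highest at 60.1 (*Birc5* and *Rrm1*), and 16 genes were above 20. The median over the 11420 genes read in every labeled library was 30.7 CPM, and 8 of the 43 were above it. Summed over the 43 genes, the level was 772.8, 899.6 and 934.7 CPM in the labeled libraries (869 ± 85.2, SD, n = 3) and 1207 and 1535 in the unlabeled libraries. The highest labeled library was below the lowest unlabeled one by a factor of 1.29, and the means differed by a factor of 1.58. In these bulk libraries, fewer cells in cycle and less of these transcripts per cell cannot be told apart, and no share of dividing cells was measured.

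**Figure D2:**
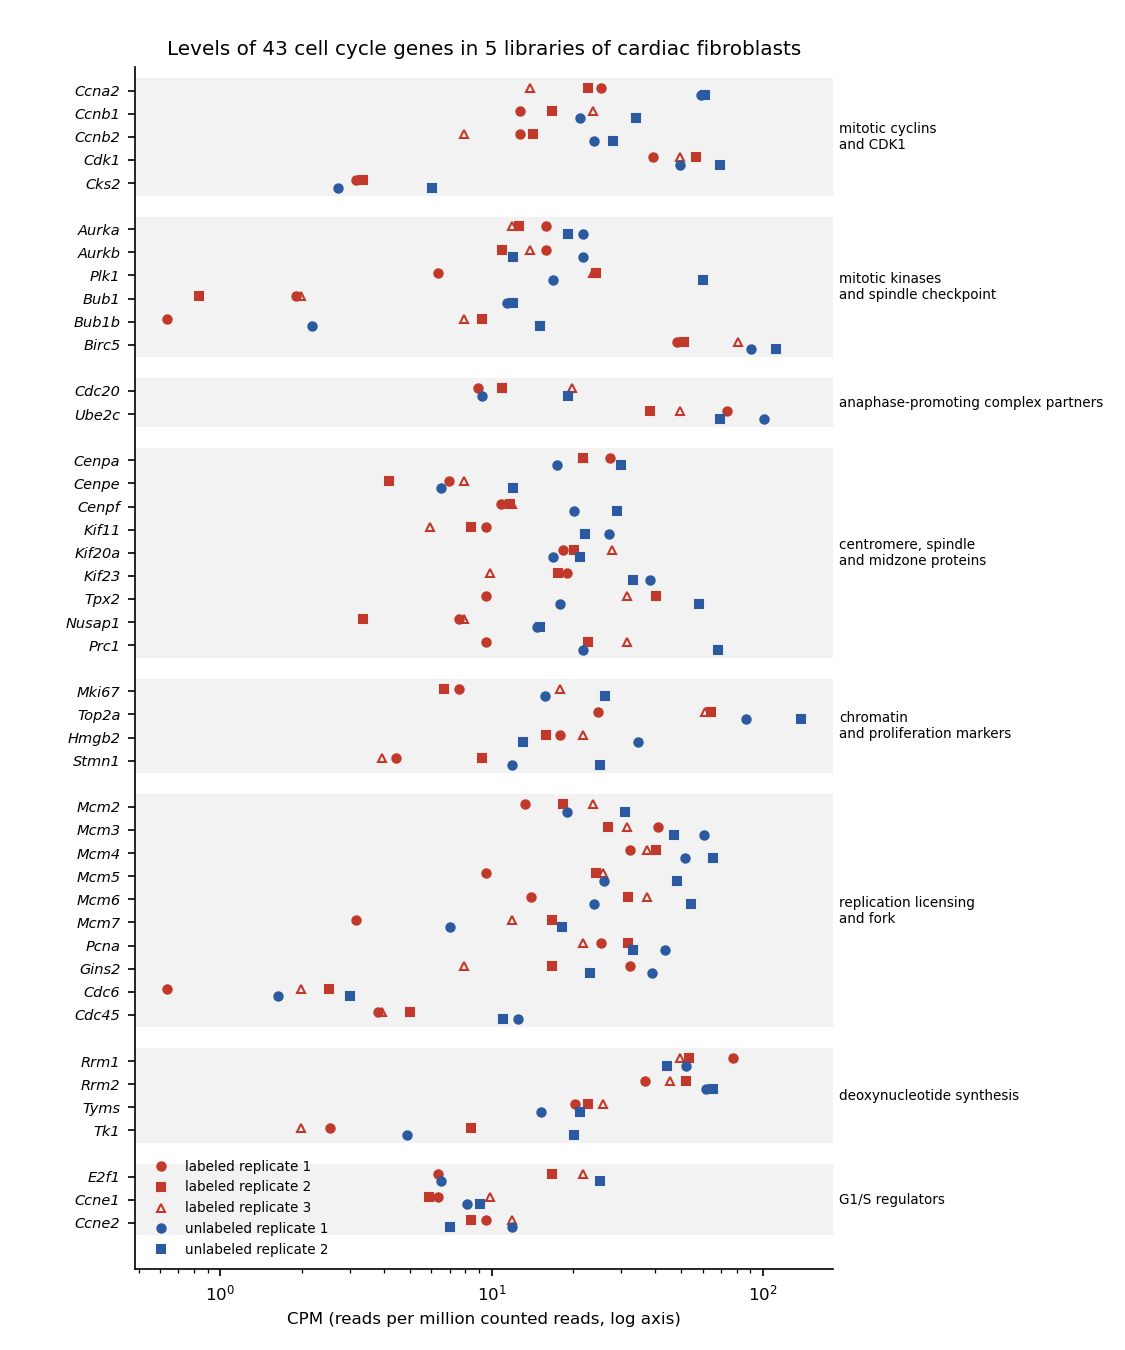
Level of each of the 43 genes in every library, in CPM on a log axis, grouped by role, with labeled libraries in red and unlabeled ones in blue (*Cks2* has no point for labeled replicate 3, where it had 0 reads). The blue points lie to the right of all red ones for 17 of the 40 genes tested (13.1% of all genes). Among the 17, *Bub1*, *Nusap1*, *Stmn1* and *Cdc45* passed the filter on low counts only through the unlabeled libraries, where they were high.

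With the libraries taken as unpaired, no gene had an adjusted p below 0.05 for its reads in labeled against unlabeled CF (edgeR's quasi-likelihood test, Benjamini-Hochberg adjustment over 9807 genes), and none of all genes did (0.0%). The 43 genes nevertheless lay to one side. Of the 40 that passed the filter on low counts (all but *Cks2*, *Cdc6* and *Cenpe*), 35 had a negative log2 fold change, with a median of -0.57, beside 4732 of 9807 genes and a median of 0.02 over all genes. In 17 of the 40, every labeled library was below both unlabeled ones in CPM (13.1% of all genes), and in none was every labeled library above (8.2% of all genes). With TMM scaling these counts were 15 (11.1% of all genes) and 1, *Rrm1* (10.4% of all genes), because *Birc5* and *Mcm5* then overlapped. At an unadjusted p below 0.05, 8 genes were lower (3.12% of all genes) and 0 were higher (2.84% of all genes). The 8 were *Ccna2*, *Ccnb2*, *Bub1*, *Cenpf*, *Kif11*, *Kif23*, *Stmn1* and *Cdc45*. The filter bears on these counts, because 5 of the 40 genes passed it only through the unlabeled libraries, where they were high. These were *Bub1*, *Nusap1*, *Mki67*, *Stmn1* and *Cdc45*. That route favors lower labeled values: of all genes that took it, 261 of 268 were negative (median -0.79). A further 3 (*Mcm7*, *E2f1* and *Ccne2*) passed only through the labeled libraries, where 133 of 867 genes were negative (median 0.53). In a split made after the values were seen, 29 genes passed through each group alone. Of these, 25 were negative with a median of -0.56 (4147 of 8366 genes and 0.0 over all), 13 did not overlap with labeled libraries lower (1154 of 8366) and 5 were lower at an unadjusted p below 0.05 (257 of 8366). With at least 10 reads required in every library, 22 genes were left, 18 of them negative, with a median of -0.47 and 1 (*Top2a*, lower) with an unadjusted p below 0.05. DESeq2 called 0 of the 43. This result depended on the pairing: with the replicate number as a block, 14 of the 40 genes had an adjusted p below 0.05 in edgeR, all lower in labeled CF (6.29% of all genes were lower) and among them the 5 that passed the filter only through the unlabeled libraries, though only 1 degree of freedom was left for the spread. The size of the shift rested on the 2 unlabeled libraries, since the median was -0.90 without unlabeled replicate 1 (35 of 41 negative) and -0.35 without unlabeled replicate 2 (25 of 41 negative). In simulated data, edgeR recovered 2 of 200 genes with a log2 fold change of 1 and 126 of 200 with one of 2. In that setting a change of 1 was mostly not detected one gene at a time. The changed genes were drawn from all 9807 and shared a common dispersion, so these shares are not those of the 43 genes. With the block, edgeR recovered 0 of 200 and 89 of 200 in the same simulated data, which held no difference between replicate numbers.

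**Figure D3:**
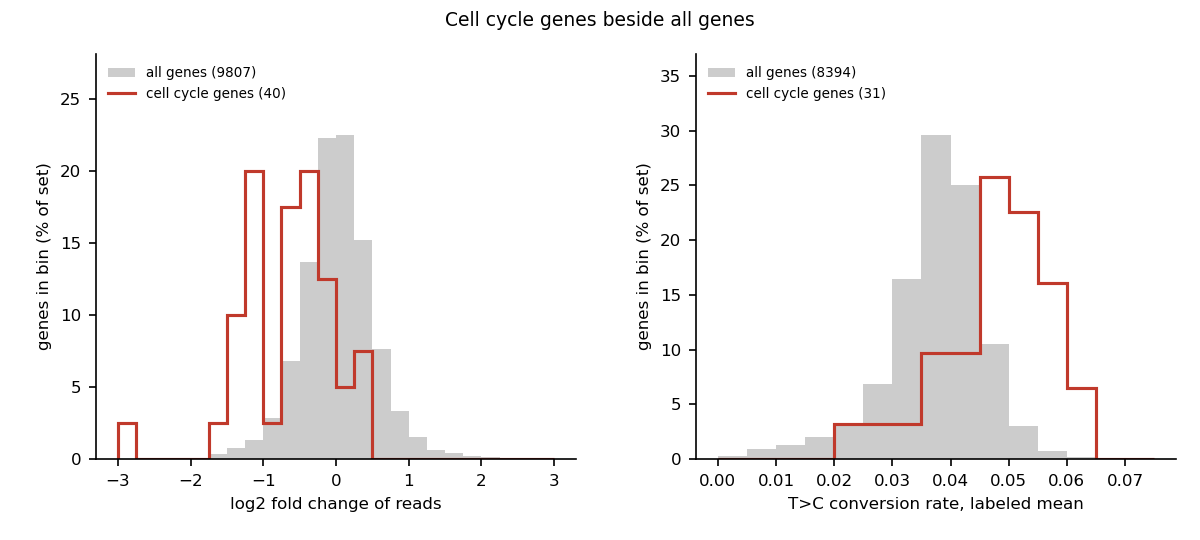
Share of genes per bin, in percent of each set, for the log2 fold change of reads (left, 40 cell cycle genes and 9807 genes in all) and for the mean T>C conversion rate of the labeled libraries (right, 31 and 8394 genes). The cell cycle genes (red line) peak to the left of all genes (gray) in fold change, with medians of -0.57 and 0.02, and to the right in rate, with medians of 0.0496 and 0.0384.

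The mitotic cyclins and CDK1 drive entry into mitosis, and all 4 genes of this group that were tested had a negative log2 fold change (median -0.82). *Cdk1*, the kinase that cyclins A and B activate, stood at 39.3, 56.9 and 49.4 CPM in labeled replicates 1, 2 and 3 and at 49.4 and 69.3 in unlabeled replicates 1 and 2. Its groups overlapped, and the log2 fold change was -0.22 (standard error 0.33). *Ccna2*, cyclin A2 of S phase and early mitosis, had 25.4, 22.6 and 13.8 CPM in the labeled and 59.1 and 61.2 in the unlabeled libraries. The unlabeled values were nearly equal and every labeled one was less than 1 in 2 of them, with a log2 fold change of -1.43 (standard error 0.33, adjusted p = 0.543 from edgeR). *Ccnb2*, a cyclin B, had 12.7, 14.2 and 7.9 CPM against 23.9 and 28.1, again without overlap (log2 fold change -1.03). *Ccnb1*, the main cyclin B, had 12.7, 16.7 and 23.7 against 21.2 and 34.1, where labeled replicate 3 was above unlabeled replicate 1. *Cks2*, a small subunit that binds CDK1, was at 3.17, 3.35 and 0 against 2.71 and 6.02 CPM, near the limit of the depth.

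The mitotic kinases and the spindle checkpoint hold cells in mitosis until chromosomes are attached. All 6 genes had a negative log2 fold change, with a median of -0.60. *Birc5*, survivin, which guides Aurora B to chromosomes, was the highest of them at 48.2, 51.0 and 81.0 CPM in the labeled and 90.6 and 112 in the unlabeled libraries. Its labeled libraries were all lower, the nearest by less than the spread between them (log2 fold change -0.70, standard error 0.34). *Bub1*, a checkpoint kinase, had the most negative log2 fold change of the 40 genes at -2.80 (standard error 0.62, adjusted p = 0.543 from edgeR), and it rested on few reads and on a place among the 40 that only its unlabeled libraries gave it. It had 3, 1 and 1 reads in the labeled and 21 and 12 in the unlabeled libraries, a level of 1.9, 0.837 and 1.98 against 11.4 and 12.0 CPM. The pooled reads were 7.62 times higher in the unlabeled libraries (95% exact interval 2.96 to 25, counting error only). The interval of *Bub1* was an annotated UTR over only 12.1% of its length and did not lie within a single exon. *Aurka*, the Aurora kinase of the spindle poles, had 15.9, 12.6 and 11.9 CPM against 21.7 and 19.1, without overlap. *Aurkb*, the kinase of the chromosomal passenger complex, had 15.9, 10.9 and 13.8 against 21.7 and 12.0, with unlabeled replicate 2 inside the labeled range. *Plk1*, Polo-like kinase 1, ranged widely within both groups, at 6.34, 24.3 and 23.7 against 16.8 and 60.2 CPM, and the labeled and unlabeled libraries overlapped. *Bub1b*, the checkpoint protein BubR1, did so too, at 0.634, 9.21 and 7.9 against 2.17 and 15.1.

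*Cdc20* and *Ube2c* work with the anaphase-promoting complex, which marks cyclin B for destruction. *Ube2c*, its ubiquitin-conjugating enzyme, had 73.6, 38.5 and 49.4 CPM in the labeled and 101 and 69.3 in the unlabeled libraries (log2 fold change -0.58, standard error 0.35). *Cdc20*, its activator, had 8.88, 10.9 and 19.8 against 9.22 and 19.1 (log2 fold change -0.09). Both genes overlapped between groups.

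The centromere, spindle and midzone proteins attach and move chromosomes and divide the cytoplasm. Of the 8 genes tested, 6 had a negative log2 fold change and the median was -1.05. In 4, *Cenpf*, *Kif11*, *Kif23* and *Nusap1*, the groups did not overlap, with labeled libraries lower (13.1% of all genes). *Nusap1* passed the filter on low counts only through the unlabeled libraries, where it was high. By that route 261 of 268 genes were negative, so its place among the 8, the 6 and the 4 rests on that, and the median partly does. *Cenpf*, *Kif11* and *Kif23* passed through each group alone. *Kif11*, the motor that pushes spindle poles apart, had 9.52, 8.37 and 5.93 CPM in the labeled and 27.1 and 22.1 in the unlabeled libraries (log2 fold change -1.50, standard error 0.39, adjusted p = 0.588 from edgeR). *Kif23*, a motor of the midzone, had 19.0, 17.6 and 9.88 against 38.5 and 33.1 (log2 fold change -1.08). Every labeled value of both genes was thus below both unlabeled ones. *Kif20a*, another midzone motor, had 18.4, 20.1 and 27.7 against 16.8 and 21.1 CPM, and *Cenpa*, the histone of centromeres, 27.3, 21.8 and 21.7 against 17.4 and 30.1. These were the 2 genes with a positive log2 fold change, 0.27 and 0.09, both within 1 standard error (0.39 and 0.39). *Tpx2*, an activator of Aurora A, stood at 9.52, 40.2 and 31.6 against 17.9 and 58.2 CPM, and *Prc1*, which bundles midzone microtubules, at 9.52, 22.6 and 31.6 against 21.7 and 68.3. In both genes replicate 1 was the lowest library of each group and the groups overlapped. The others, *Cenpe*, *Cenpf* and *Nusap1*, were at means of 6.29 to 11.5 CPM in the labeled libraries.

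Among the chromatin genes used as marks of proliferation, all 4 had a negative log2 fold change (median -1.06). *Mki67* and *Stmn1* passed the filter on low counts only through the unlabeled libraries, where they were high. The count and median rest partly on them, and the others, *Top2a* and *Hmgb2*, had -1.11 and -0.34. *Top2a*, the topoisomerase that untangles sister chromosomes, had 24.7, 64.4 and 61.3 CPM in the labeled and 86.8 and 138 in the unlabeled libraries, without overlap (log2 fold change -1.11, standard error 0.47). *Mki67*, the gene of the Ki-67 antigen, had 7.61, 6.69 and 17.8 against 15.7 and 26.1, and labeled replicate 3 was above unlabeled replicate 1 (log2 fold change -1.0). *Stmn1*, which takes microtubules apart, had 4.44, 9.21 and 3.95 against 11.9 and 25.1, with a log2 fold change of -1.50 (standard error 0.59, adjusted p = 0.799 from edgeR). Its labeled values were all below the unlabeled ones, and labeled replicate 3 had only 2 reads. The log2 fold change was -0.85 without unlabeled replicate 2 and -2.01 without unlabeled replicate 1 or without labeled replicate 2. *Hmgb2*, a chromatin protein of dividing cells, overlapped at 17.8, 15.9 and 21.7 against 34.7 and 13.1 CPM.

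The replication genes load the helicase and copy DNA. All 9 tested had a negative log2 fold change, with a median of -0.56 and a range from -1.37 to -0.18, and 5 did not overlap in CPM, with labeled libraries lower (13.1% of all genes): *Mcm3*, *Mcm4*, *Mcm5*, *Pcna* and *Cdc45*. With TMM scaling it was 4 (11.1% of all genes), without *Mcm5*. *Mcm4*, a helicase subunit, had 32.4, 40.2 and 37.5 CPM in the labeled and 51.6 and 65.3 in the unlabeled libraries (log2 fold change -0.60, standard error 0.30). *Mcm3*, another, had 41.2, 26.8 and 31.6 against 60.8 and 47.2 (-0.62, standard error 0.31). In both, every labeled value was below the unlabeled ones, with an adjusted p of 0.908 from edgeR. *Mcm6* had 14.0, 31.8 and 37.5 against 23.9 and 54.2 and *Mcm5* 9.52, 24.3 and 25.7 against 26.0 and 48.2 CPM, with replicate 1 the lowest library of each group. *Pcna*, the sliding clamp of the DNA polymerases, had 25.4, 31.8 and 21.7 against 43.4 and 33.1, a small gap of its highest labeled to its lowest unlabeled library (log2 fold change -0.45). *Cdc45*, which starts the helicase, had the most negative value of the group at -1.37 (standard error 0.50), from means of 4.26 CPM in the labeled and 11.8 in the unlabeled libraries. It passed the filter on low counts only through the unlabeled libraries, where it was high. Its place among the 9 tested and the 5 without overlap rests on that. *Mcm2*, *Mcm7* and *Gins2*, a part of the active helicase, had means of 10.6 to 19.0 in the labeled libraries and overlapped, and *Cdc6*, a loading factor, had 1, 3 and 1 reads against 3 and 3.

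Genes of deoxynucleotide synthesis did not share one direction (median log2 fold change -0.02, 2 of 4 negative). *Rrm2*, the regulated small subunit of ribonucleotide reductase, had 36.8, 51.9 and 45.5 CPM in the labeled and 61.9 and 65.3 in the unlabeled libraries, without overlap (-0.43, standard error 0.30). *Rrm1*, its large subunit, had 77.4, 53.6 and 49.4 against 52.1 and 44.2, and had the highest log2 fold change of the 40 genes at 0.41 (standard error 0.31, adjusted p = 0.999 from edgeR). So the subunits of 1 enzyme had log2 fold changes of opposite sign, neither past the test. *Tyms*, thymidylate synthase, had 20.3, 22.6 and 25.7 against 15.2 and 21.1 (0.40, standard error 0.38), and *Tk1*, thymidine kinase, 2.54, 8.37 and 1.98 against 4.88 and 20.1 (-1.32, standard error 0.86). The G1/S regulators lay near 0 (median -0.04). Of these, *E2f1* and *Ccne2* passed the filter on low counts only through the labeled libraries. By that route 133 of 867 genes were negative (median 0.53), so it favors positive values. *E2f1*, a factor that switches on replication genes, had 6.34, 16.7 and 21.7 CPM against 6.51 and 25.1. The cyclin E genes *Ccne1* and *Ccne2* had 6.34, 5.86 and 9.88 against 8.14 and 9.04, and 9.52, 8.37 and 11.9 against 11.9 and 7.03. All 3 overlapped between groups, with log2 fold changes of -0.04, -0.21 and 0.08, the last of which was -0.01 when library sizes alone were used for scaling.

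**Figure D4:**
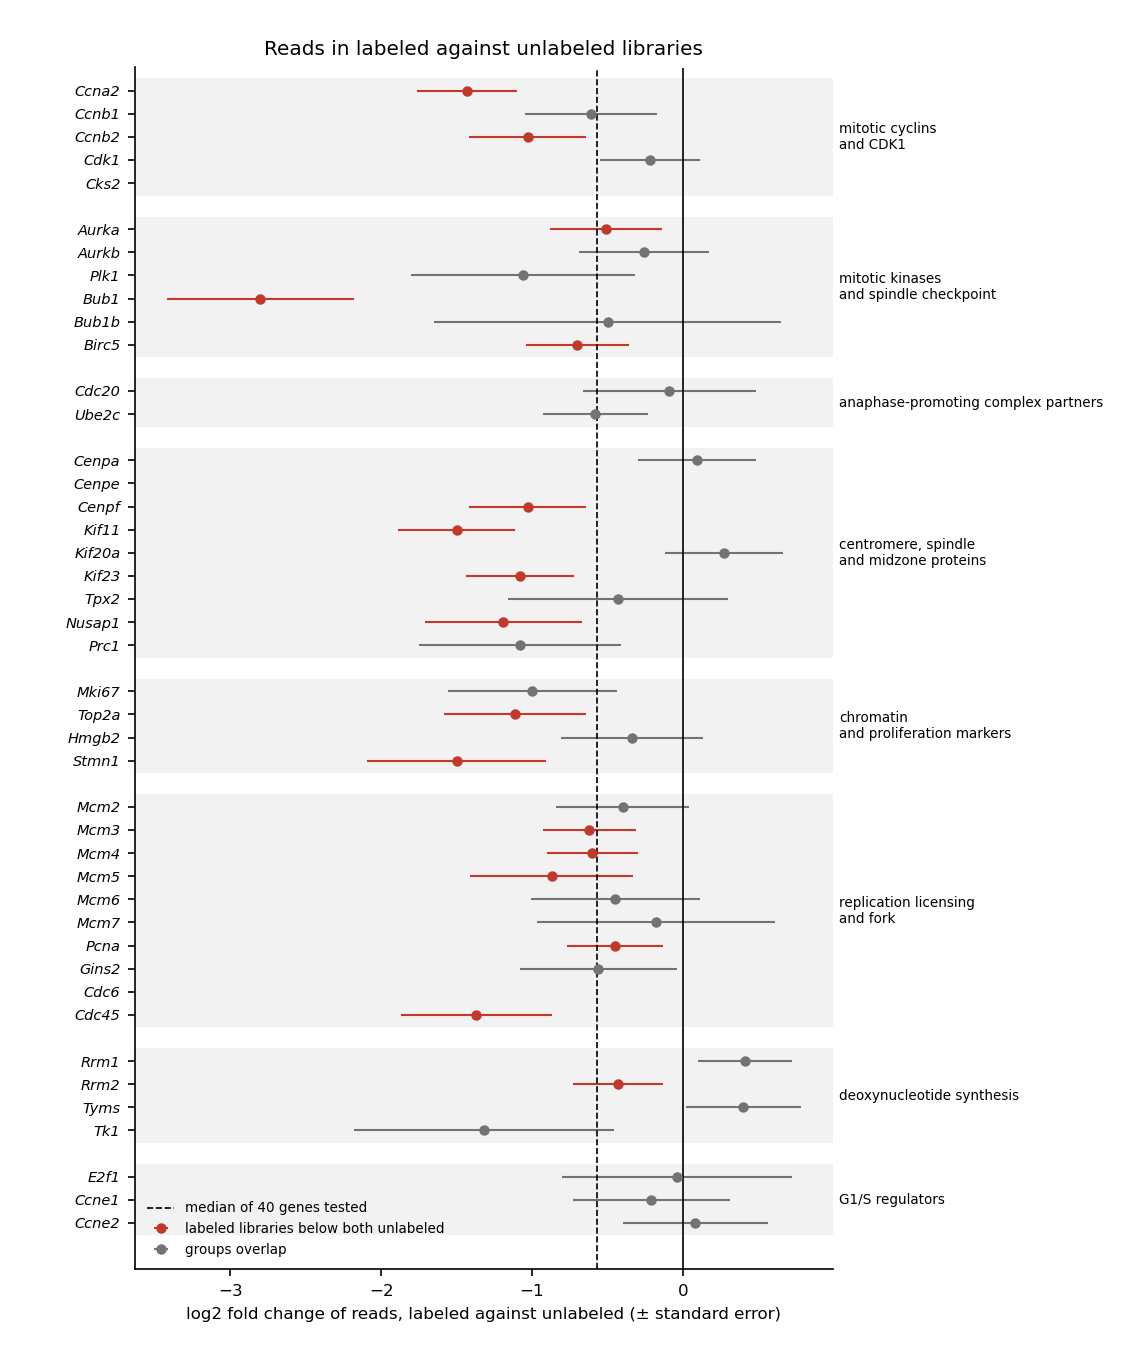
Log2 fold change of reads in labeled against unlabeled libraries with its standard error (edgeR) for the 40 genes tested, by role. Red marks the 17 genes whose labeled libraries all lie below both unlabeled ones in CPM (13.1% of all genes). Points lie left of 0 for 35 of 40 genes (4732 of 9807 over all genes), with the dashed line at the median of -0.57. *Bub1*, *Nusap1*, *Mki67*, *Stmn1* and *Cdc45* passed the filter on low counts only through the unlabeled libraries, where they were high.

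Genes of the same processes outside the 43 that passed the filter on low counts were also mostly negative. How many of them passed it only through the unlabeled libraries was not counted. Their counts may therefore include genes that the filter favored in that direction. Of 50 other mitosis genes, 35 were tested, 32 had a negative log2 fold change and the median was -0.65. In 14 of them every labeled library was below both unlabeled ones in CPM (13.1% of all genes), and in 1, *Gtse1*, every labeled library was above (8.2% of all genes). Of 40 other replication genes, 24 were tested, 20 were negative and the median was -0.35. In 7 every labeled library was below both unlabeled ones, and in 0 above. With TMM scaling these replication genes gave 6 below (11.1% of all genes) and 1, *Dut*, above (10.4% of all genes). None passed the adjusted threshold in edgeR, and 3 and 2 were lower at an unadjusted p below 0.05 (3.12% of all genes). The highest mitosis gene, *Cks1b*, a partner of CDKs, had 59.6, 83.7 and 123 CPM against 120 and 134, while the highest replication gene, *Tipin*, a protein of the replication fork, had 68.5, 59.4 and 65.2 against 90.6 and 65.3. The log2 fold changes of *Hjurp*, *Smc4* and *Lmnb1* were -0.08, -0.65 and -0.53, and those of *Dut*, *Msh6* and *Rpa2* were 0.42, -0.07 and -0.27. Among 15 repressors and arrest genes, 14 were tested, 10 were negative and the median was -0.25. In 3, *Cdkn2c*, *Rb1* and *Rbl1*, every labeled library was below both unlabeled ones in CPM (13.1% of all genes). In 2, *Cdkn1a* and *Cdkn2b*, every labeled library was above (8.2% of all genes). With TMM scaling it was 2 below, without *Rb1* (11.1% of all genes), and 2 above (10.4% of all genes). Within this list *Cdkn1a*, the CDK inhibitor p21, had 426, 1360 and 1310 CPM in the labeled and 80.9 and 388 in the unlabeled libraries, without overlap (log2 fold change 2.2, standard error 0.8, adjusted p = 0.767 from edgeR). *Cdkn1b*, the inhibitor p27, had 164, 88.7 and 79.0 against 223 and 159, *Cdkn2b* a log2 fold change of 0.68 and *E2f4* one of -0.08.

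Most reads of the typical gene among the 43 carried a conversion after 12 h, and the conversion rates of these genes were mostly above the median of all genes. A total of 31 genes reached 100 covered T positions in each labeled library, and their mean rate over these libraries had a median of 0.0496, with quartiles at 0.0416 and 0.0542, beside a median of 0.0384 and quartiles at 0.0336 and 0.0425 over 8394 genes covered as deeply. The mean rate of 25 of the 31 (80.6%) was above the median of all genes. By library, the median of the 31 was 0.0493, 0.05 and 0.048, and that of all genes 0.0374, 0.0386 and 0.0385, so the order was the same in each of the 3 labeled libraries. In every labeled library at once, 18 of the 31 (58.1%) lay above that library's median, beside 21.3% of all genes. In the unlabeled libraries the conversions pooled over the 43 genes gave 0.000908 and 0.000661, against 0.0508, 0.0506 and 0.0526 in the labeled ones. The median share of reads with a conversion, the mean of the labeled libraries, was 0.665 for these genes and 0.516 for all.

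In the beta-binomial test of conversions against covered T positions, 40 of 42 genes tested had a higher rate in the labeled libraries at p below 0.05, where 94.6% of 19240 intervals did, so this share is near that of all intervals. *Cks2* was not tested because labeled replicate 3 covered none of its T positions. The exceptions were *Stmn1*, with rates of 0.0595, 0.0194 and 0 in the labeled libraries, and *Cdc6*, with 0, 0.0943 and 0 from at most 53 covered T positions in a labeled library. The beta-binomial p was 0.0504 for *Stmn1* and 0.121 for *Cdc6*.

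The median of the mean rates was 0.0495 over 19 genes of the mitosis and chromatin groups and 0.0499 over 12 of the replication, nucleotide and G1/S groups. By library the order of the 2 medians changed, with 0.0495, 0.0532 and 0.0472 for the former and 0.0484, 0.0426 and 0.0571 for the latter in labeled replicates 1, 2 and 3, and the difference was not tested. *Cdk1* had the highest rate of the 31, 0.0639, 0.0564 and 0.07 in labeled replicates 1, 2 and 3 (0.0634 ± 0.00682, SD, n = 3), from 1722, 1968 and 757 covered T positions. Its unlabeled libraries held 1 conversion in 4703 covered T positions, and 99.8% of the 8394 genes had a lower rate. *Rrm2* had 0.0552, 0.0535 and 0.0725 (0.0604 ± 0.0105) and *Pcna* 0.0528, 0.0577 and 0.0692 (0.0599 ± 0.0084). *Pcna* had 0 conversions in 3205 covered T positions of the unlabeled libraries, which allows a rate of up to 0.000936. *Ccna2*, *Top2a*, *Kif23* and *Tpx2* had the closest replicates, at 0.0573 ± 0.00133, 0.0532 ± 0.00308, 0.0576 ± 0.00318 and 0.0495 ± 0.00357.

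A few genes stood below the median of all genes. *Mki67* had the lowest rate of the 31, 0.0069, 0.0207 and 0.0452 in labeled replicates 1, 2 and 3, from 1 conversion in 145, 3 in 145 and 7 in 155 covered T positions. The 95% Wilson intervals were 0.00122 to 0.038, 0.00706 to 0.0591 and 0.022 to 0.0903 (counting error only), so that the 3 libraries do not fix its rate. *Ccne1* had 0.0291, 0.0219 and 0.027, alike in all 3 libraries (0.026 ± 0.00372, SD, n = 3), each from 206 or fewer covered T positions. *E2f1* had 0.0108, 0.034 and 0.0474, with labeled replicate 1 the lowest (0.0308 ± 0.0185). *Tyms*, *Cenpe* and *Cenpf* followed at means of 0.0351, 0.0372 and 0.0382, each with a spread from 0.0122 to 0.0198. Beside *Ccne1* and *E2f1*, the third G1/S gene *Ccne2* had 0.0485, 0.0718 and 0.0241 and a mean of 0.0481.

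**Figure D5:**
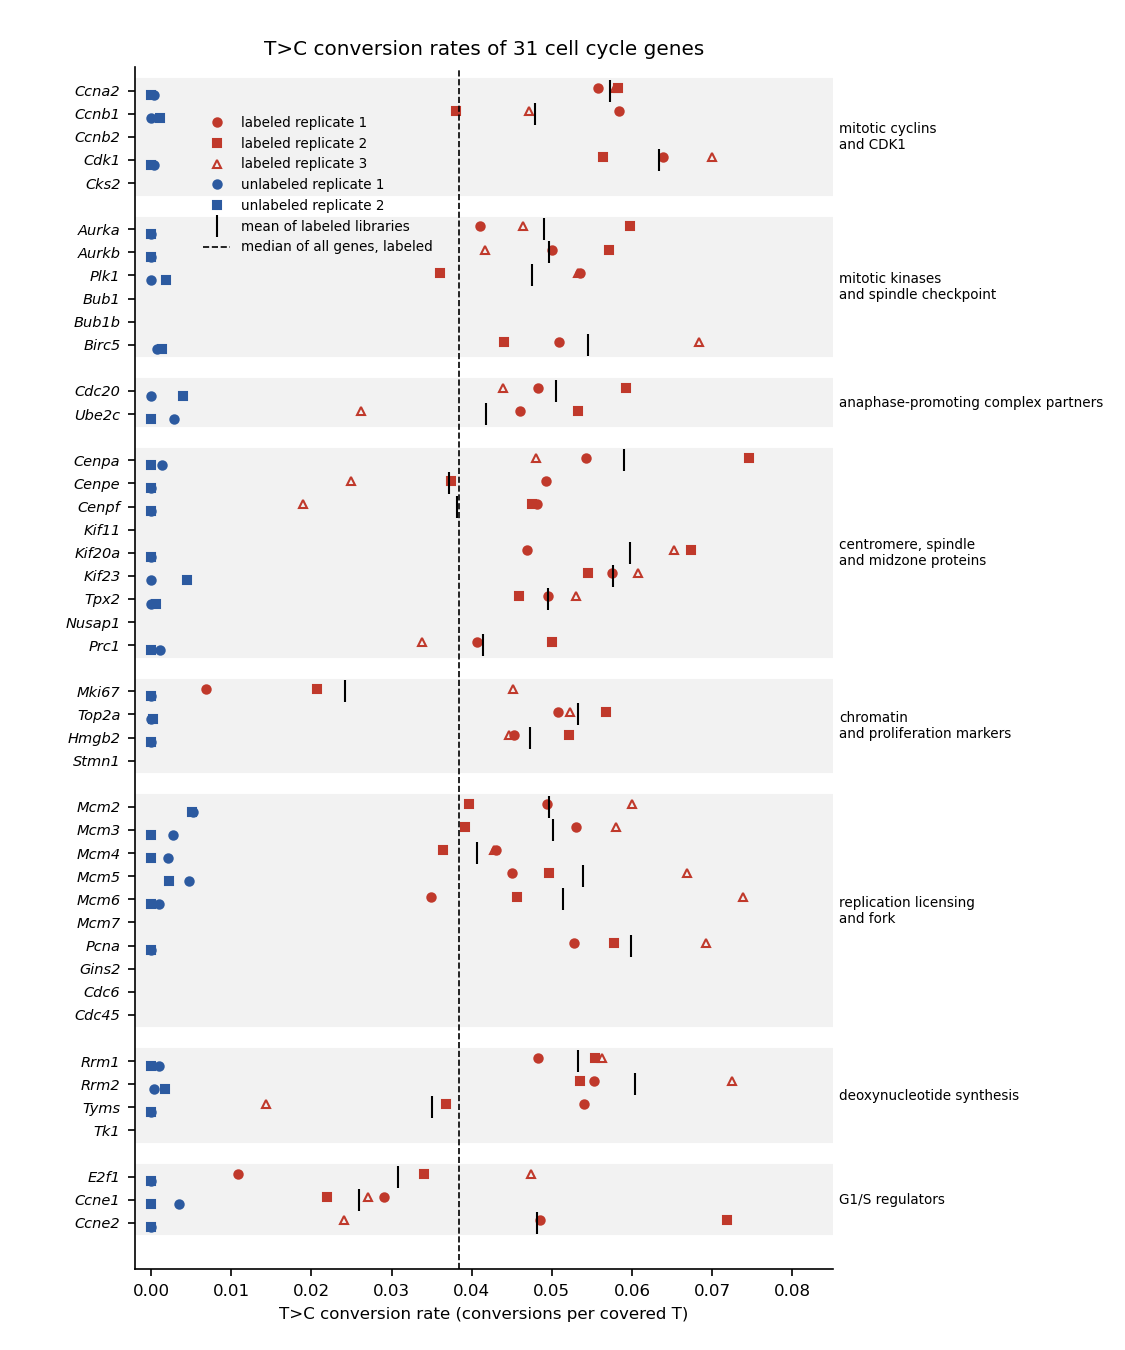
T>C conversion rate, in conversions per covered T position, of the 31 genes that reached 100 covered T positions in each labeled library, with labeled libraries in red, their mean as a black tick and unlabeled libraries in blue; the dashed line is the median of all genes in labeled libraries, 0.0384. The mean lies right of the line for 25 of 31 genes, with *Cdk1* farthest right at 0.0634 and *Mki67* farthest left at 0.0242.

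Other lists lay between these genes and all genes in rate. The median was 0.0473 over 24 other mitosis genes, 0.0424 over 16 other replication genes and 0.0389 over 11 repressors and arrest genes. *Cdkn1a* had a rate of 0.035 ± 0.00532 (SD, n = 3), below the median of all genes, and *Col1a1*, the collagen that CF make in large amounts, had 0.0259 ± 0.00199. Among the 31 genes with a rate, the 3 highest, *Cdk1*, *Rrm2* and *Pcna*, had log2 fold changes of reads of -0.22, -0.43 and -0.45, closer to 0 than the median of -0.57. *Ccna2* and *Kif23*, with log2 fold changes of -1.43 and -1.08, also had high rates, above those of 99.3% and 99.4% of all genes.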

How the data were processed

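SLAMseq libraries of CF, 3 labeled and 2 unlabeled, were grouped by their titles in the labels. The authors moved the molecular identifiers into read headers with umi-tools, mapped to mm39 with SLAM-DUNK 0.4.3 and removed duplicates. The deposited counts (reads, covered T positions, conversions) are per interval and not normalized. The deposited conversion rate is a fraction of conversions over covered T. The deposited CPM divides by a number of reads per library larger than the counted reads, so levels were rescaled to the counted reads here.

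Repeated table rows were used once, which left 40428 distinct intervals (70 of the 43 genes), and the interval whose deposited CPM averaged highest over the labeled libraries stood for each gene. The multimapped reads listed in the tables were 0. T content matched GRCm39 in 40380 of 40380 intervals. Reads were tested with edgeR 4.0.16 (quasi-likelihood, TMM, filterByExpr, R 4.3.3) on all genes and rates with a beta-binomial likelihood-ratio test (two-sided, chi-square with 1 degree of freedom, numba 0.67.0) on all intervals where every library covered a T. DESeq2 1.42.0 and limma 3.58.1 served as alternatives, with other scalings, filters, intervals, thinning, a replicate block and each library left out. On simulated data with 200 changed genes of 9807, edgeR recovered 126 at a log2 fold change of 2, with 8 false calls. Libraries of a group differed beyond sampling noise (chi-square 2.04 to 16.6 per degree of freedom), so each counted once.

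The genes, the gene lists and the motif words were chosen with earlier results of these data known. Every one of the 43 genes was named. Values in every library were given for up to 5 genes of each role by labeled level, for the 3 largest rises and falls of reads, and for the 3 highest and lowest rates. From the other lists up to 4 genes by level were named, and *Col1a1* beside them. *Gtse1*, *Cdkn2c*, *Rb1* and *Rbl1* were named because their groups did not overlap, and not by level.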

Additional observations from a re-analysis of the deposited data

How the results depend on the processing

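Replicate numbers 1 and 2 occur in both groups. Per the methods, 3 CF preparations were used and controls were kept in parallel, so same-numbered libraries may share a preparation, but no source says that the numbers link them, and the comparison without pairs was kept as the primary one. Deviations from group means correlated at 0.784 between libraries numbered 1 and at 0.638 between those numbered 2, and at 0.482 between labeled replicate 3 and unlabeled replicate 2 (across genes). With 2 unlabeled libraries the deviations of one mirror those of the other. With the replicate block, edgeR gave 14 of the 40 genes an adjusted p below 0.05, all lower in labeled CF (*Birc5*, *Bub1*, *Ccna2*, *Cdc45*, *Cenpf*, *Kif11*, *Kif23*, *Mcm5*, *Mki67*, *Nusap1*, *Plk1*, *Prc1*, *Stmn1* and *Top2a*). It called 1145 of all 9807 genes, 617 lower (6.29%) and 528 higher. Of the 14, *Bub1*, *Cdc45*, *Mki67*, *Nusap1* and *Stmn1* passed the filter on low counts only through the unlabeled libraries, where they were high. The fit with the block had 1 residual degree of freedom left. The median log2 fold change was then -0.63.

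In the other alternatives run for reads (other scalings, filters, summed intervals, thinning, DESeq2, each library left out) 0 of the 43 genes passed. DESeq2 called 14 genes in all. The median log2 fold change of the genes tested stayed negative, from -0.90 to -0.35 over the libraries left out and from -0.70 to -0.47 otherwise. Library sizes alone moved the median of all genes to -0.06. The log2 fold change of *Ccne2*, 0.08, was -0.01 with library sizes alone and -0.06 with the replicate block, and -0.19 to 0.48 with a library left out. From deposited CPM, the log2 ratio of summed levels was -1.06 in place of -0.66. The count of genes with a higher rate was 31 of 31 tested with 100 covered T positions or with limma (with or without the replicate block) and 40 of 42 after Benjamini-Hochberg adjustment. With a library left out it went from 39 of 42 (without labeled replicate 2) to 43 of 43 (without labeled replicate 3). The median rate was 0.0482 to 0.0513 with a labeled library left out, and the share of reads with a conversion is another scale, 0.665. No gene of the 43 reached 1000 covered T positions in every library, so that minimum gave no value. Depth limited single genes: 12 of the 43 were below 10 CPM of counted reads.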

Other observations

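Levels of some of the 43 genes differed between libraries of the same group by more than between groups. *Bub1b*, *Plk1*, *Tpx2*, *Prc1*, *Stmn1*, *Mcm6*, *Mcm7*, *Tk1* and *E2f1* were over 2 times higher in the library numbered 2 than in that numbered 1 in both the labeled and the unlabeled group, 9 of 40 genes (22.5%), beside 857 of 9807 genes (8.74%). The ratio was chosen after the values were seen. For *Plk1* it was 3.82 in the labeled and 3.58 in the unlabeled group, for *Tpx2* 4.22 and 3.25, and for *E2f1* 2.64 and 3.85. For *Stmn1* it was 2.07 and 2.1, smaller than the factor of 2.84 between its groups in edgeR. *Gins2* alone was over 1.5 times higher in the library numbered 1 in both groups, with ratios of 0.517 and 0.591, beside 15.5% of all genes. The counts for the 2 directions use different ratios and are not on the same scale. At over 1.5 times, *Top2a* (2.6 and 1.58) and *Mcm5* (2.55 and 1.85) would join the genes higher in number 2. The sign of the difference between numbers 1 and 2 was the same in both groups for 32 of 40 genes (80.0%) and for 79.2% of all genes. Some neighbours in function did not vary together: between the unlabeled libraries *Aurkb* and *Hmgb2* were lower in number 2, with ratios of 0.555 and 0.376, while *Plk1* and *Prc1* were 3.58 and 3.15 times higher. Which CF preparation a number stands for is not stated, and these ratios were not tested.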
